A study of Cricetulus griseus with 6 samples.

Results

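Ackr3 and adrenomedullin signalling genes were examined in CHO-K1, a Chinese hamster ovary line grown in suspension for protein production. The list had 8 genes: the atypical chemokine receptor gene Ackr3, the peptide gene Adm, the receptor gene Calcrl, its accessory subunit genes Ramp1, Ramp2 and Ramp3, the chemokine gene Cxcl12 and the receptor gene Cxcr4. They were chosen by the difference between cultures without and with putrescine, where Ackr3 had already stood out, together with the known partners of Ackr3. Of the 8 genes, 5 had a probe set annotated to that gene alone, 1 each, among 14899 genes measured. Calcrl shared its probe set with the gene Tfpi, and Ramp2 and Ramp3 had no probe set under their own symbol, so these 3 genes were not analysed here.

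The cultures without putrescine (0 mg/l, 3 flasks) received serum-free F10-based medium that also lacked other polyamines and ornithine. The cultures with putrescine (1 mg/l, 3 flasks) received the same medium with putrescine added. Both were CHO-K1 in suspension and were sampled on day 3 for an Affymetrix whole-transcript array, 1 array a flask, and the titles number the flasks as biological replicates. All results are from this single line.

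Ackr3, formerly called Cxcr7, binds the chemokine Cxcl12 as Cxcr4 does, but it recruits arrestin without classical G protein signalling and takes its ligands into the cell. Besides chemokines it binds adrenomedullin and opioid peptides, and in mouse development it limits the amount of adrenomedullin. Adrenomedullin, a vasodilator peptide made by many cell types, acts through Calcrl joined to Ramp2 or Ramp3 and raises cAMP, while Calcrl joined to Ramp1 is the receptor for calcitonin gene-related peptide.

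The medians of the 6 arrays ran from 4.92 to 4.98. Arrays of the same group correlated at r = 0.9957 to 0.9962 across probe sets, against 0.9856 to 0.9878 between groups. Differences below are log2 values of cultures without putrescine minus those with it. The threshold was a limma adjusted p of 0.05 over all 29700 probe sets. As a guide to dim signal, 14 genes that mark other tissues read 4.05 at the median and 4.77 at the upper quartile, averaged over the 6 arrays. They ranged from 2.76 to 8.33, and 2 of them, Actn3 (-1.06) and Apoa2 (0.69), passed the threshold. Probe sets differ in affinity, so this is a rough guide and the levels of different genes were not ranked.

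Both genes of the Ackr3 and adrenomedullin pair were higher without putrescine, whereas the measured chemokine partners and Ramp1 read low in both groups and differed little. Ackr3 (probe set 17954077) read 8.82, 8.92 and 8.50 in the cultures without putrescine, and 5.99, 6.35 and 6.01 in those with putrescine. Every culture without putrescine lay above every culture with it, by at least 2.15. The means were 8.75 ± 0.22 without and 6.12 ± 0.20 with putrescine (SD, n = 3 each), a difference of 2.63 (SE 0.14). In linear terms Ackr3 was 6.19-fold higher, and its difference ranked 3 from the highest of 29700 probe sets.

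Adm (probe set 18006013), the gene of the adrenomedullin precursor, was 3.07-fold higher. It read 7.36, 7.05 and 7.05 without putrescine, against 5.73, 5.35 and 5.53 with putrescine. The groups were separated by 1.32, and replicate 1 was the highest culture in each. The means were 7.15 ± 0.18 without and 5.54 ± 0.19 with putrescine (SD, n = 3 each), a difference of 1.62 (SE 0.13). Its difference ranked 49 from the highest. The SDs of Ackr3 and Adm exceeded the median SD within groups of 0.13 over all probe sets, and both differences were many times larger.

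The chemokine axis gave no comparable difference. Cxcr4 (probe set 18089871), the signalling receptor for Cxcl12, read 3.87, 3.92 and 3.79 without putrescine and 3.74, 3.57 and 3.73 with putrescine. The groups did not overlap, but by only 0.05, and the difference was 0.18 (SE 0.09) at values below the dim guide's median. Cxcl12 (probe set 17987022), the ligand shared by Cxcr4 and Ackr3, read 4.35, 4.52 and 4.38 without putrescine against 4.72, 4.53 and 4.33 with it. These ranges overlapped, and the difference was -0.11 (SE 0.11).

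Ramp1 (probe set 17997973) encodes the subunit that makes Calcrl a receptor for calcitonin gene-related peptide. It read 3.16, 3.20 and 2.82 in cultures without putrescine, and 3.15, 3.28 and 3.31 in cultures with putrescine. The lowest value, in replicate 3 without putrescine, accounted for most of the difference of -0.19 (SE 0.12), which was -0.07 without that array. At signals this low a change in Ramp1, Cxcr4 or Cxcl12 may not have been detectable.

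Of the 5 measured genes, 2 passed the threshold, both higher without putrescine, and the groups did not overlap for 3. Over the whole array 24.4% of probe sets passed, 13.2% higher and 11.2% lower, and 37.5% did not overlap. Because this contrast chose the genes, nothing is read from these counts.

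**Figure D1:**
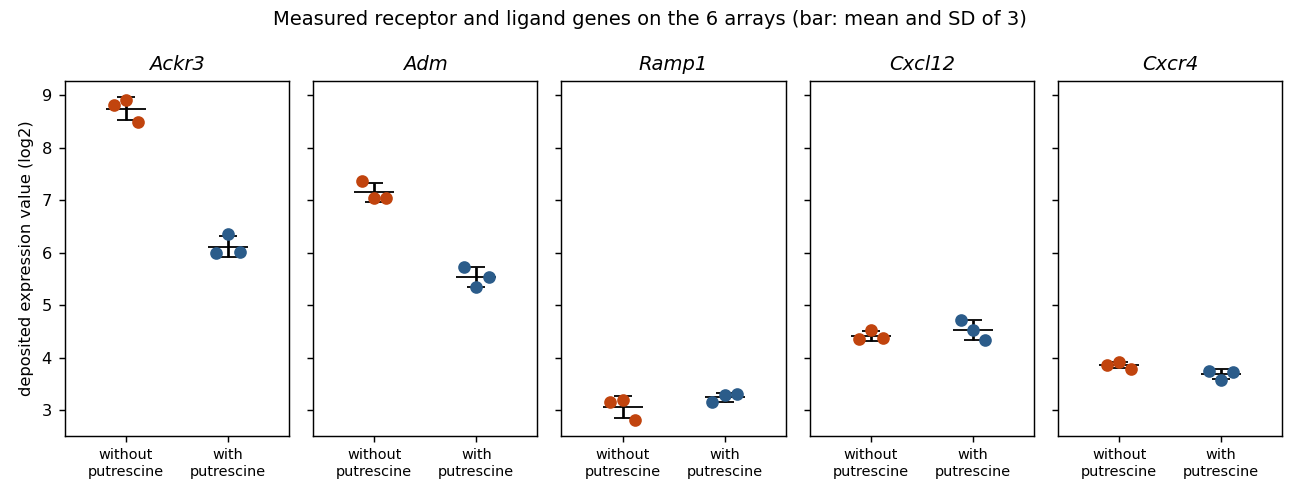
Deposited log2 value of each measured gene on the 6 arrays, cultures without putrescine (orange) left of cultures with putrescine (blue), with the mean and SD of 3. Ackr3 and Adm are separated by 2.15 and 1.32, while Ramp1, Cxcl12 and Cxcr4 read under 5 in both groups.

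Ackr3 and adrenomedullin receptors are found in endothelium among other tissues, so endothelial markers were measured beside them. Of 15 endothelial markers, 3 rose without putrescine and 0 fell in limma, and at an unadjusted p under 0.05 the counts were also 3 and 0. The share called was 20%, below the 30.0% of all genes taken by their brightest probe set (15.8% higher and 14.2% lower). The mean over the list was 4.07 to 4.13 in cultures without putrescine and 3.95 to 4.04 in cultures with it. Without Tek the ranges overlapped, at 4.001 to 4.024 and 3.97 to 4.04, and the median difference over all 15 was -0.01. Tek, the angiopoietin receptor, rose by 1.38 to 5.25 without putrescine, against 3.87 with it (limma adjusted p = 0.000347). Eng, a TGF-beta co-receptor, rose by 0.45, and Flt1, a VEGF receptor, rose by 0.36 to 3.53. The defining markers Pecam1, Cdh5, Kdr and Tie1 read 3.17, 3.91, 2.74 and 3.21 without putrescine, and 3.29, 3.97, 2.85 and 3.22 with putrescine, and none passed. Every culture was of the single line CHO-K1, so these values describe genes in that line, and no share of endothelial cells was measured. In bulk RNA a change in the share of CHO-K1 cells in a given state and a change per cell cannot be told apart. The part of these markers in the Ackr3 and Adm values was not tested.

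Among the other chemokine receptors the gene that passed the threshold was Ccrl2, in the direction opposite to Ackr3. Ccrl2, an atypical receptor-like protein that binds chemerin without signalling, read 6.07, 6.25 and 6.36 without putrescine against 7.82, 7.74 and 7.86 with putrescine. It was 2.99-fold lower (difference -1.58, SE 0.10; limma adjusted p = 3.42e-05), and the groups did not overlap. Of 18 measured receptors on this list, 0 rose, 1 fell and 17 did not pass in limma, with a median difference of 0.02. At an unadjusted p under 0.05, 0 rose and 2 fell. Only 6 of the 18 read above the dim guide's median, so a change in the others may not have been detectable. Over all genes, each taken by its brightest probe set, 30.0% passed, 15.8% higher and 14.2% lower, with a median of 0.01. The atypical receptor genes Ackr1, Ackr2 and Ackr4 read 2.94, 3.28 and 3.97 without putrescine and 3.03, 3.16 and 3.95 with it. Gpr182, another scavenging receptor once proposed to bind adrenomedullin, had a difference of -0.29 (limma adjusted p = 0.144) and Ccr4 one of -0.33. Ccr3 had a difference of 0.23, at 2.95 without and 2.72 with putrescine.

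Of 17 measured chemokine and opioid peptide genes, 2 rose, 3 fell and 12 did not pass, or 29.4% called, with a median of -0.04. Mif, a cytokine that binds Cxcr4 and Ackr3, read 11.68, 11.59 and 11.35 without putrescine and 10.86, 10.45 and 10.79 with it. It was 1.79-fold higher (difference 0.84, SE 0.13; limma adjusted p = 0.00204). Hmgb1, a chromatin protein that can form a complex with Cxcl12 outside the cell, rose by 0.38. That call was lost without with-putrescine replicate 3, with limma adjusted p from 0.000333 to 0.0544 over the settings tried.

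The ligand genes that fell were chemokines for other receptors. Ccl27, a skin chemokine, had a difference of -1.19 (SE 0.17), and Ccl17, a ligand of Ccr4, fell to 4.05 without putrescine, against 4.94 with it. Cxcl1, a neutrophil attractant acting on Cxcr2, had a difference of -0.85 (SE 0.20; limma adjusted p = 0.0124). The opioid precursor genes Penk, Pdyn and Pnoc, which encode peptides that Ackr3 binds, had differences of 0.06, -0.04 and -0.29, Pomc one of -0.13, and none passed. Penk, Pnoc and Pomc read 4.11, 2.94 and 3.99 without putrescine and 4.04, 3.22 and 4.13 with it. These levels were near or below the dim guide's median, where a change may not have been detectable.

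In the calcitonin peptide family, to which adrenomedullin belongs, the receptor gene Calcr rose. Calcr encodes the calcitonin receptor, which joined to Ramp proteins becomes a receptor for amylin. It read 6.05, 6.24 and 6.45 without putrescine, and 4.98, 5.14 and 4.45 with putrescine, with no overlap. The difference was 1.39 (SE 0.18), 2.62-fold higher (limma adjusted p = 0.000722). Of 8 measured genes on this list 1 rose, 1 fell and 6 did not pass, or 25% called beside 30.0% of all genes.

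Of the genes that make and remove these peptides, the protease gene Ide passed the threshold. Pam, which amidates adrenomedullin and so activates it, had a difference of 0.11 at 10.29 without and 10.19 with putrescine (limma adjusted p = 0.402). Ide, which degrades insulin and amylin, fell by 0.45 (limma adjusted p = 0.00965). Crcp, a component of the Calcrl receptor complex that is also an RNA polymerase subunit, had a difference of 0.05, and the prohormone convertase gene Pcsk2 one of 0.16. Mme, which encodes neprilysin, a protease that cleaves adrenomedullin, read 2.43 without and 2.46 with putrescine.

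**Figure D2:**
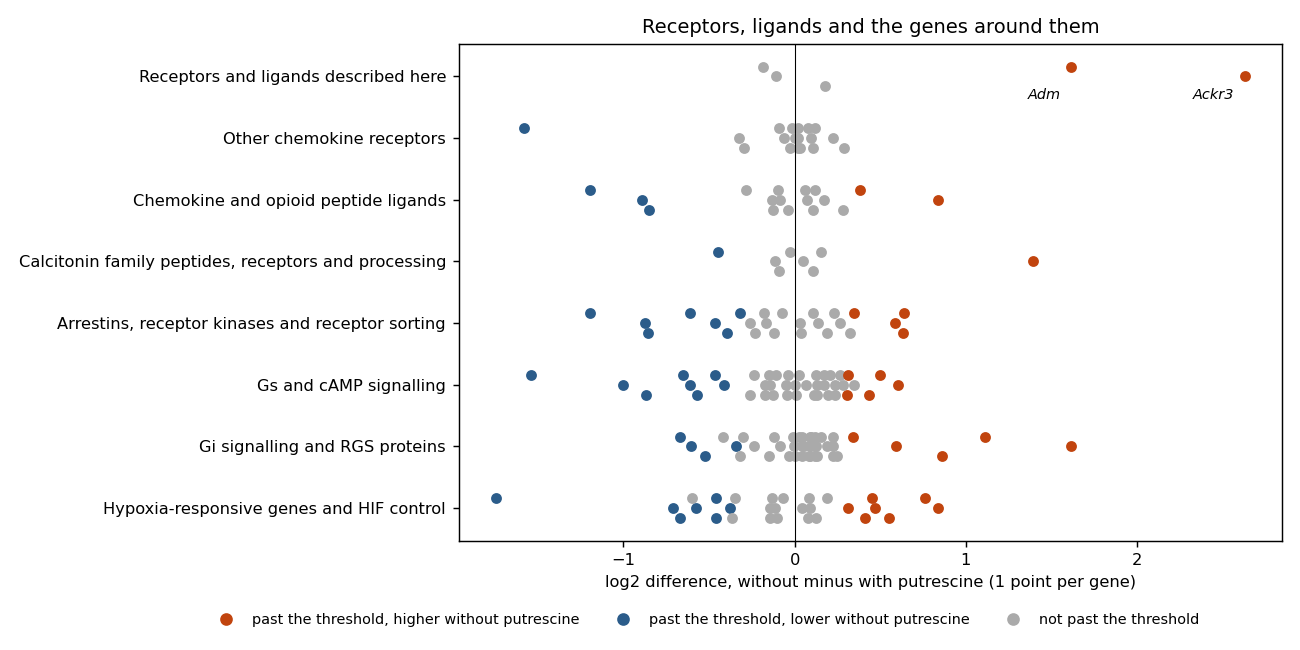
Log2 difference, without minus with putrescine, of each measured gene on 8 rows, 1 point a gene, orange where higher and blue where lower past the threshold and grey where not past it. Ackr3 at 2.63 lies farthest to the right, Adm at 1.62 lies level with Rgs16 at 1.61, and among the other chemokine receptors Ccrl2 at -1.58 stands alone.

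Ackr3 acts through arrestins and receptor kinases, and of those measured Arrb1 and Grk5 rose, while sorting genes moved both ways. Of 25 measured genes for arrestins, kinases and receptor sorting, 4 rose, 7 fell and 14 did not pass, with a median of -0.08. The share called was 44%, beside 30.0% of all genes. Arrb1, which encodes beta-arrestin and read 9.44 without against 8.81 with putrescine, rose 1.55-fold (limma adjusted p = 0.00128). Grk5, a kinase that phosphorylates active receptors, rose by 0.59. Of the other receptor kinase genes none passed, and Grk1, Grk2, Grk4 and Grk6 had differences of 0.04, 0.23, 0.32 and 0.26. Arrdc3, an arrestin-domain adaptor of receptor sorting, rose by 0.64 in its brightest probe set and by 0.71 and 0.99 in the others. Rab4a, of rapid endosomal recycling, rose by 0.35.

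The sorting genes that fell included the deubiquitinase gene Usp33 (-1.20), the ubiquitin ligase gene Wwp2 (-0.88) and Arrdc1 (-0.86). The endosomal genes Rab5a, of early endosomes, and Rab7a, of late endosomes, also fell, with differences of -0.46 and -0.39. The remaining list members that fell were Usp20 (-0.61) and Txnip (-0.32). Rab5a, Rab7a, Usp20 and Txnip were picked after their values were seen.

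The Gs and cAMP list, the route by which Calcrl signals, was split too. Of 41 measured genes 5 rose, 8 fell and 28 did not pass, with a median of 0.01. The share called, 31.7%, was near the 30.0% of all genes. Crem, a cAMP-responsive transcription factor gene, read 5.55, 5.50 and 5.67 without putrescine against 6.98, 7.29 and 7.07 with it. It was 2.91-fold lower (limma adjusted p = 4.44e-05). The phosphodiesterase gene Pde10a had -1.0, with -0.88 in a further probe set, and the adenylyl cyclase gene Adcy7 had -0.87.

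Those that rose were the cyclase gene Adcy6 (0.60), the protein kinase A catalytic gene Prkaca (0.50), the regulatory subunit genes Prkar1a (0.44) and Prkar2b (0.31), and Adcy10 (0.31), a soluble cyclase that read 3.13 without and 2.82 with putrescine. The calls of Adcy10 and Prkar2b were lost when any of the 6 arrays was left out. Over all settings tried, limma adjusted p ran from 0.0402 to 0.144 for Adcy10 and from 0.0247 to 0.139 for Prkar2b. Prkacb, a further catalytic gene of protein kinase A, went the other way from Prkaca, with a difference of -0.41 (limma adjusted p = 0.0143). Gnas, the Gs alpha subunit, had a difference of -0.04.

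Of 41 genes for Gi subunits, RGS proteins and their effectors, through which Cxcr4 signals, 5 rose, 4 fell and 32 did not pass. The share called was 22%, below the 30.0% of all genes, and the median was 0.08. Rgs16, which switches off Gi and Gq signalling, read 7.13, 7.47 and 7.38 in cultures without putrescine, and 5.66, 5.75 and 5.73 in cultures with putrescine. Its difference of 1.61 (SE 0.10; limma adjusted p = 3.91e-05) was 3.06-fold. Rgs2, which acts mainly on Gq, rose by 1.11, and its values with putrescine were spread from 4.06 to 4.90. Rgs17, of the same family, rose by 0.86, the gamma isoform gene of phosphoinositide 3-kinase Pik3cg by 0.59 and the inhibitory alpha subunit gene Gnai2 by 0.34.

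The Gi list members that fell were the G beta genes Gnb4 (-0.67) and Gnb2 (-0.61), the phospholipase gene Plcb1 (-0.52) and the Rac exchange factor gene Prex2 (-0.34). Further probe sets of Prex2 had -0.23 and -0.29 and did not pass (limma adjusted p = 0.0995 and 0.0537). The call of Gnai2 was lost without any single array other than no-putrescine replicate 3, and that of Prex2 without any other than with-putrescine replicate 1. Gnai2 also lost its call after quantile normalization and with the replicate block. Limma adjusted p over all settings tried ranged from 0.00213 to 0.0966 for Gnai2 and from 0.00157 to 0.0805 for Prex2.

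**Figure D3:**
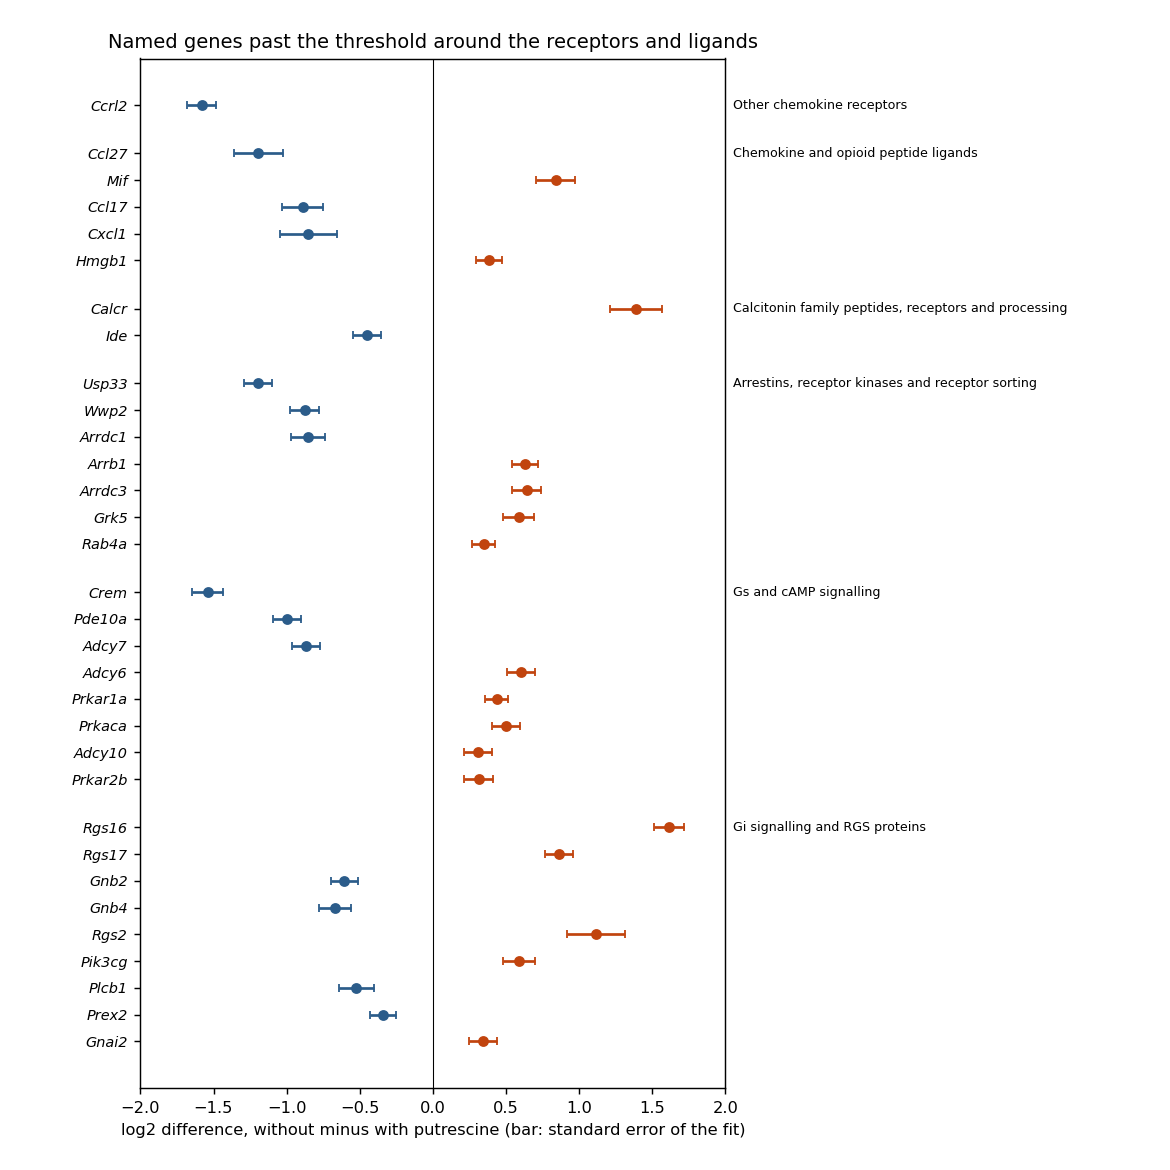
Log2 difference without minus with putrescine, with the standard error of the fit, of the named genes past the threshold in 6 lists around the receptors and ligands, orange where higher and blue where lower. Rgs16 (1.61) and Calcr (1.39) are the highest shown, and Ccrl2 (-1.58) and Crem (-1.54) the lowest.

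Adm is known as a hypoxia-induced gene, and a list of hypoxia-responsive genes and regulators of the hypoxia response did not share one direction. Of 29 measured, 7 rose, 7 fell and 15 did not pass, with a median of -0.10. The share called was 48.3%, beside 30.0% of all genes. Because the list mixes targets and regulators, these counts are not of hypoxia-responsive genes alone. Pdk1, a kinase that restrains pyruvate dehydrogenase, was 3.35-fold lower (difference -1.74, SE 0.10; limma adjusted p = 2.23e-05). Mxi1, a MYC antagonist, had -0.57. The glucose transporter gene Slc2a1 rose by 0.84 and the transcription repressor gene Bhlhe40 by 0.76. Ndrg1 and Hk2 rose by 0.45 and 0.41. Vegfa, which encodes the angiogenic growth factor, fell by 0.46. The others that fell were Bnip3 (-0.71), Pfkfb4 (-0.67), Bnip3l (-0.46) and Pfkfb3 (-0.38). Among the regulators, Hif1a, the oxygen-regulated factor, rose by 0.31, Hif1an by 0.55 and Egln1 by 0.47. Of the hypoxia list genes named here, all but Pdk1, Mxi1, Slc2a1 and Bhlhe40 were picked after their values were seen. The part of a hypoxia response in the Adm values was not tested.

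Likeness to Ackr3 and Adm was measured as the root mean square distance between log2 values over the 6 arrays after subtracting each gene's mean. With 3 arrays a group this distance is set mainly by the size of the group difference. The 5 nearest genes to Ackr3 were Tfrc (distance 0.21), the transferrin receptor, Thbs1 (0.34), a matrix glycoprotein, Arhgef16 (0.35), a guanine nucleotide exchange factor, Rnft2 (0.38), a ring finger protein, and Chst2 (0.39), a sulfotransferase. Adm lay 0.57 from Ackr3, and 31 of 16480 probe sets of other genes lay nearer to Ackr3.

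Nearest to Adm was Col12a1, a fibril-associated collagen, at a distance of 0.05. Col12a1 read 9.53, 9.30 and 9.26 without putrescine against 7.90, 7.46 and 7.67 with it, so that replicate 1 was highest in each group, as in Adm. Hspg2, which encodes the basement membrane proteoglycan perlecan, followed at 0.08, with a difference of 1.56. The remaining 3, LOC100751053 (0.08), LOC100769505 (0.08) and LOC100771923 (0.09), have no gene name in the annotation. Ackr3 was further from Adm than 1283 probe sets of other genes.

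**Figure D4:**
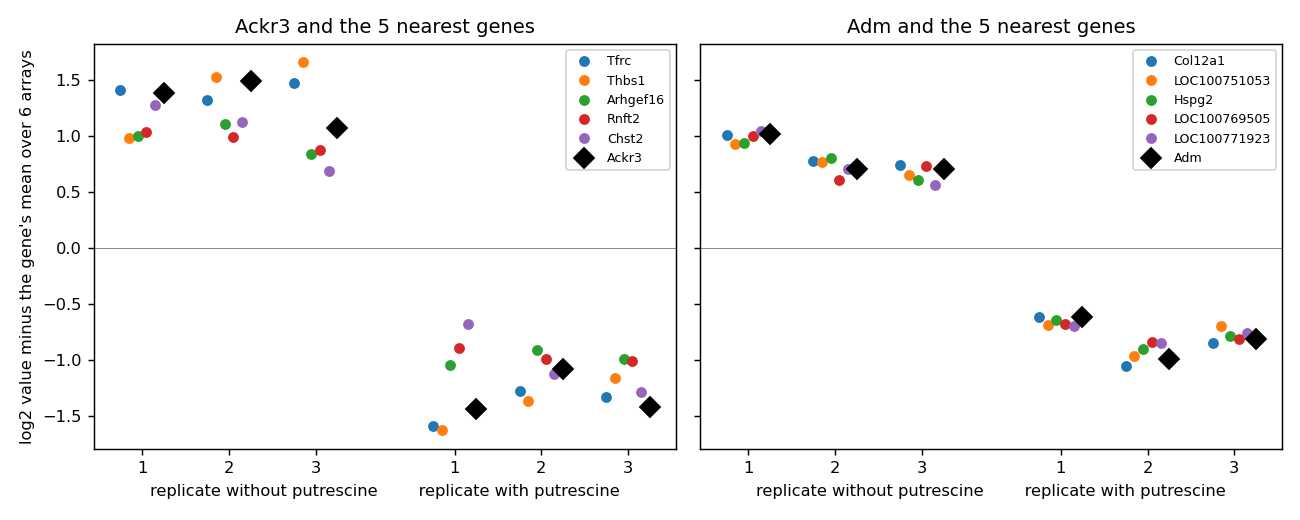
Log2 value minus each gene's own mean, on each of the 6 arrays, for Ackr3 (left, black diamonds) and Adm (right, black diamonds) with the 5 nearest genes of each (coloured points), replicates without putrescine left of those with putrescine. The genes near Adm lie 0.05 to 0.09 from it, those near Ackr3 0.21 to 0.39.

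The genes beside Ackr3 and Adm in the CriGri-PICRH-1.0 assembly did not share the size of their differences. They were looked up after the values of Ackr3 and Adm were seen, with 3 protein-coding neighbours on each side. Next to Ackr3, Cops8, a COP9 signalosome subunit, rose by 0.44 (limma adjusted p = 0.00573), and Iqca1 on the other side had 0.12 and did not pass. The others, Gbx2, Asb18, LOC103164567 and Mlph, read under 4 in both groups and none passed.

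Around Adm the neighbours moved both ways. The ubiquitin ligase gene Rnf141 rose by 0.69 (limma adjusted p = 0.000671), and on the other side Sbf2, a myotubularin-related gene, fell by 0.43 and Swap70, a Rac-binding protein gene, by 0.54. Ampd3 (-0.28), which lies next to Adm, Wee1 (0.23) and Lyve1 (-0.14) did not pass.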

How the data were processed

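Gene expression was measured on 6 arrays, 3 of CHO-K1 cultures without and 3 with putrescine. The deposited values are log2 values, already summarised per probe set. The authors made them with Transcriptome Analysis Console, per the submitters' processing notes; its version and settings, the normalization and the log base were not given in the sources used here. Folds assume base 2, which the range of 1.55 to 13.66 allows. The members and lists were chosen with earlier results of these data known.

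Symbols came from the platform annotation. Of 29700 probe sets 16481 had 1 symbol, 793 several and 12426 none, and only the first were named; 16394 matched RefSeq (CriGri-PICRH-1.0) by Entrez identifier and 0 symbols changed. No sequences or coordinates are printed, since the array's genome build was not given; the RefSeq assembly served for the order of neighbouring genes.

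Limma 3.58.1 (R 4.3.3) was fitted to all probe sets with group as its only term, tested on simulated data first. Tests were two-sided, with Benjamini-Hochberg adjustment over all probe sets and a threshold of 0.05. A gene with several probe sets was taken by its brightest. Precision is limited by 3 arrays a group.

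Named genes were all measured members, the 4 genes with the smallest p in each of 7 lists, all passing genes where 5 or fewer passed in a direction, and the 5 nearest genes to members differing by at least 1. Genes given as single values beside these, the marker genes and the marker means without Tek or Cd68 were added after the values were seen. Alternatives were quantile normalization, median centring, a filter on dim probe sets, an intensity trend, a replicate block, gene means and leaving out each array. Same-numbered arrays did not deviate together (correlations of 0.05, -0.10 and -0.02), so replicate numbers were not treated as pairs.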

Additional observations from a re-analysis of the deposited data

How the results depend on the processing

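The differences of Ackr3 and Adm kept their direction and size under the alternatives that could change them. They were 2.54 to 2.75 for Ackr3 and 1.51 to 1.71 for Adm with 1 array left out, and 2.61 and 1.61 after quantile normalization. The filter on dim probe sets, the intensity trend and the replicate block cannot change a difference of group means in this design. Ramp1, Cxcl12 and Cxcr4 ranged from -0.26 to -0.07, from -0.21 to -0.01 and from 0.13 to 0.22 with 1 array left out, and Ramp1 and Cxcr4 were below the filter on dim probe sets. The count of members past the threshold was 2 in all settings. Of all probe sets 7240 passed as deposited, 6408 with the replicate block, 5810 to 6237 with 1 array left out and 8051 with an intensity trend. Genes past the threshold over the 7 lists numbered 55 as deposited, 52 with the replicate block, 47 to 53 with 1 array left out and 65 with gene means over all probe sets. Of 55 named genes followed over the settings, 5 lost their call somewhere and 0 changed direction. Dim signal limits what can be said of Ramp1, Cxcl12 and Cxcr4.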

Other observations

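Markers of the ovary and of cultured mesenchymal cells were measured beside Ackr3 and Adm. The intermediate filament gene Vim read 12.06 without and 12.09 with putrescine, and Pdgfra, a growth factor receptor, 7.92 and 7.95. On this list 9 of 14 genes read above the dim guide's median. Among the dimmer ones, Col1a1, Thy1 and Cdh2 read 4.05, 3.55 and 3.09 without putrescine and 4.12, 3.49 and 3.24 with it. Of 14 mesenchymal and culture-line genes 4 rose, 0 fell and 10 did not pass in limma, and 5 rose and 0 fell at an unadjusted p under 0.05. The share called, 28.6%, was near the 30.0% of all genes, and the genes that rose included the epithelial cadherin gene Cdh1 (0.29). Lgals1 rose by 0.89 to 12.44 without putrescine (limma adjusted p = 0.000146). Pdgfrb rose by 0.64 to 6.86 (limma adjusted p = 0.0029) and the fibronectin gene Fn1 by 0.46 to 8.03. The ovarian markers Fshr, Inha and Nr5a1 read 4.18, 4.42 and 3.74 without putrescine and 4.24, 4.43 and 3.67 with it, near the dim guide. Star, the steroidogenic cholesterol carrier, rose by 0.67 to 7.09 without putrescine, against 6.42 with it (limma adjusted p = 0.00277). Of 11 ovarian follicle markers 1 rose, 2 fell and 8 did not pass, or 27.3% called beside 30.0% of all genes. Those that fell were the oocyte growth factor gene Gdf9 (-0.58, limma adjusted p = 0.0192) and the estrogen receptor gene Esr2 (-0.57, limma adjusted p = 0.0461). Gdf9 read 3.14 without and 3.72 with putrescine, below the dim guide's median. Esr2 read 4.59 and 5.16, and its groups were not separated.

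Leukocytes use many of the chemokine receptors listed, and 12 leukocyte markers were measured in these CHO-K1 cultures. Of these 0 rose and 2 fell in limma, or 16.7% called beside 30.0% of all genes. At an unadjusted p under 0.05, 1 rose and 2 fell. The mean of these markers was 3.72 to 3.86 in cultures without putrescine and 4.09 to 4.14 in cultures with it. Without Cd68 the ranges overlapped, at 3.52 to 3.67 and 3.65 to 3.72, and the median difference over all 12 was -0.06. Cd68, a lysosomal glycoprotein, fell to 6.05 without putrescine, against 8.89 with it, while the pan-leukocyte gene Ptprc read 2.85 without and 2.82 with putrescine.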
